A study of Mus musculus with 6 samples.

Results

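Single target genes of the transcriptional co-activators YAP and TAZ were examined one by one in mouse embryonic fibroblasts (MEFs), 10 of the 26231 genes in the deposited expression table. They were taken by symbol and are Ctgf (also called Ccn2), Cyr61 (Ccn1), Ankrd1, Axl, Dock5, Crim1, F3, Ajuba, Nt5e and Ptpn14, and each was found once in the table. RNA sequencing had been done on 6 libraries from 2 immortalized lines of FVB strain. The control line, MEF Nf2fl/fl (given as WT in the labels), carries Nf2 alleles flanked by loxP sites and had received a lentivirus that expresses GFP from the CMV promoter. The other line, labelled MEF Nf2-/- (Nf2 KO), came from the same kind of fibroblast after a lentivirus that expresses Cre and GFP from that promoter. Both lines had been immortalized with SV40 large T antigen, both came from embryos of about 14 days by the labels, and both were held without serum for 24 h before RNA was taken. Each line is represented by 3 libraries, numbered replicate 1, 2 and 3, which the depositors marked A, B and 2018 in the same order in both lines. The sources do not say what these marks stand for, nor that the replicates were separate cultures, so the p-values measure the spread between these libraries, which may be technical.

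Merlin, the product of Nf2, is an upstream activator of the Hippo pathway, in which the MST and LATS kinases phosphorylate YAP and TAZ and hold them out of the nucleus. YAP and TAZ that enter the nucleus bind DNA through the TEAD factors, often beside AP-1, and raise the transcription of genes for matrix-associated signals, cell-surface receptors and cytoskeletal proteins. Serum lipids, cell density, adhesion and tension on the actin cytoskeleton are all known to change YAP and TAZ activity in cultured fibroblasts, so their target genes are used as a readout of that activity. Several targets, Ajuba and Ptpn14 among them, encode proteins that act back on the pathway.

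Since the genes share a proposed regulator, their promoters are shown before their RNA levels. RefSeq windows of 300 bases on GRCm38.p6, covering 250 bases before and 50 bases after the start of the gene, were at hand for 8 of the 10 genes, and none was printed for Ctgf or Dock5. The core of the TEAD element, searched as GGAATG on both strands, was found in 6 of the 8 windows (Cyr61, Ankrd1, Axl, Crim1, Ajuba and Ptpn14), and in 14.7% of all 32851 promoter windows of this length. The AP-1 element, searched as TGANTCA on both strands, was found in 1 of the 8, that of F3, and in 7.81% of all windows. The 250 bases before the start are printed, 5′ to 3′ on the strand of the gene, for Cyr61 and Ankrd1, which hold the TEAD core and rose in replicate 2, for Crim1, which holds it and passed there only with the replicate block described further on, for F3 with its pair of AP-1 matches, and for Ptpn14, which holds the core and did not pass. Capitals mark the matches.
Cyr61, chr3:145649986-145650235, minus strand: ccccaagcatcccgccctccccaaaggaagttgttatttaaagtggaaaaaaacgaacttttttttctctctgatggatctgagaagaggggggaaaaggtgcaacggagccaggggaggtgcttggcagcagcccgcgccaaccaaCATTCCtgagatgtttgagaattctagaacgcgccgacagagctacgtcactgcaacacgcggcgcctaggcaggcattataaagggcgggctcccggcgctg
Ankrd1, chr19:36119845-36120094, minus strand: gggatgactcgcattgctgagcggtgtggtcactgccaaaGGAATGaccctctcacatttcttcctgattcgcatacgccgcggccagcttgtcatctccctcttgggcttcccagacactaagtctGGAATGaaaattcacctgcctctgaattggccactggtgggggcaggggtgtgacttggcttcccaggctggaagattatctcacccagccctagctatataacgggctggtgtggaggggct
Crim1, chr17:78199998-78200247, plus strand: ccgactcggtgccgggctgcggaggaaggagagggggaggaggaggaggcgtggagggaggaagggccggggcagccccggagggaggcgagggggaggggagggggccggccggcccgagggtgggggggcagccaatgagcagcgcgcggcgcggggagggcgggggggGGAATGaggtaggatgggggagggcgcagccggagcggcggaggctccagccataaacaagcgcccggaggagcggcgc
F3, chr3:121723287-121723536, plus strand: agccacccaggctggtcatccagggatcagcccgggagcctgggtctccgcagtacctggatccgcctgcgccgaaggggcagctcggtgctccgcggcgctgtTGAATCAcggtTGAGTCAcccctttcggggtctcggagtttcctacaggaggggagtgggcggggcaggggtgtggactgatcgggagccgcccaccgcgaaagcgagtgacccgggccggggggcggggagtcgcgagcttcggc
Ptpn14, chr1:189728018-189728267, plus strand: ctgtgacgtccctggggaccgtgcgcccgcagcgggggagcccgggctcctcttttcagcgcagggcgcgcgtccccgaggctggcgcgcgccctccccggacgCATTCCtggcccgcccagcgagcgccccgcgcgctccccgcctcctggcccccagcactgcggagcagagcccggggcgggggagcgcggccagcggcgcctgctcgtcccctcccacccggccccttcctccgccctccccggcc
Counted from the start of the gene, the match in Cyr61 ended at base -98, those in Ankrd1 at -205 and -118, that in Crim1 at -74 and that in Ptpn14 at -141. The F3 matches to TGANTCA, in which N is any base, read TGAATCA and TGAGTCA. They lay close together and ended at -140 and -129. A match is a stretch of letters and no measurement of binding, and no match says only that the letters are not in this window.

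**Figure D1:**
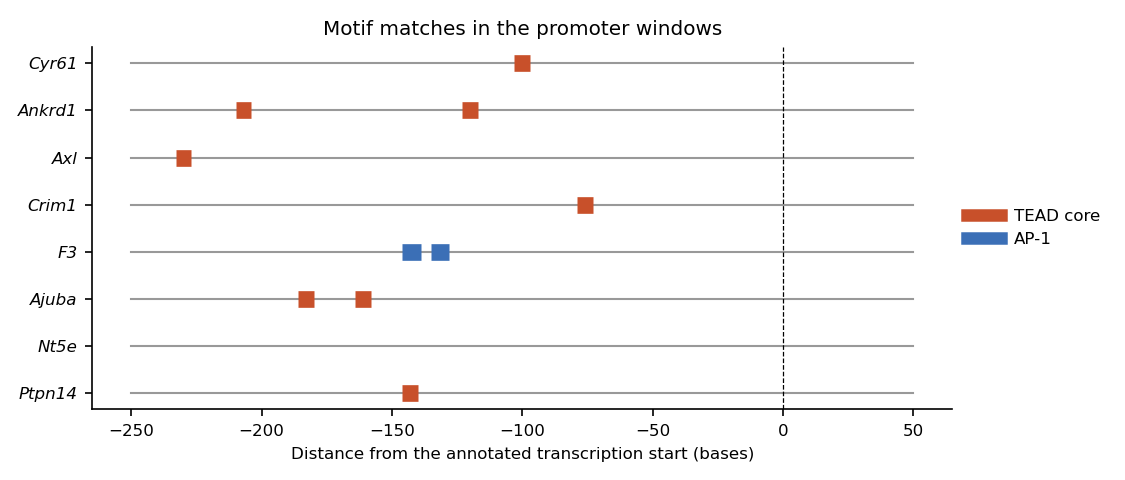
Places of the GGAATG core (orange) and of TGANTCA (blue), on either strand, in the promoter windows of 8 target genes; the horizontal axis is the distance in bases from the start of the gene, from 250 before to 50 after. Ajuba and Ankrd1 hold 2 cores each, Axl, Crim1, Cyr61 and Ptpn14 hold 1, and F3 holds only AP-1 matches, of which it has 2.

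The values were read as RPKM (reads per kilobase of exon and per 1000000 reads), a unit that corrects for gene length, so levels can be set side by side between genes. The steps between low values put the depth at 13.4 to 19.2 M reads (M, 1000000) in replicates 1 and 2 and at 61.1 and 72.9 M reads in replicate 3. Nf2 itself was no lower in the libraries labelled MEF Nf2-/-. Its level was 14.3, 13.7 and 13.1 RPKM in the control line and 15.4, 12.9 and 13.9 RPKM in the other line (log2 difference 0.03, SE 0.10, limma adjusted p = 0.987). A value per gene does not show which exons the reads came from, so the genotype was not checked by these files, and the second line is called by its label throughout. Of 8 fibroblast markers, 6 were at 1 RPKM or more in every library. Pdgfra and Dcn were not, and did not overlap between the lines: Pdgfra was at 5.22 to 12.3 RPKM in the control line and 0.657 to 1.42 RPKM in the line labelled MEF Nf2-/-, and Dcn at 1.60 to 4.01 and 0.0266 to 0.133 RPKM. Thy1 (4.19 to 7.04 against 1.85 to 3.64 RPKM) and Vim (772 to 882 against 536 to 753 RPKM) were lower without overlap too. The other fibroblast markers overlapped, and 7.52% of all genes tested were lower without overlap. Whether this moves with the targets' line differences was not tested. All 7 epithelial markers were under 1 RPKM in every library.

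The 10 genes covered a wide range of levels. By the mean of the 6 libraries, Cyr61 (372 RPKM) and Ctgf (292 RPKM) came first, at places 75 and 114 among all 26231 genes, then Ankrd1 (183 RPKM), Axl (77.5 RPKM), Crim1 (74.6 RPKM) and F3 (71.2 RPKM). Ptpn14 (24.6 RPKM), Ajuba (18.6 RPKM) and Dock5 (3.66 RPKM) were lower, and Nt5e was last at 0.332 RPKM. Several neighbours in this order could not be separated: Ctgf was above Ankrd1 in 3 of 6 libraries, Axl above Crim1 in 3, Crim1 above F3 in 4 and Ptpn14 above Ajuba in 4. Cyr61 was above Ctgf in 5 of 6, and the remaining steps of the order held in all 6 libraries. Of the 10 genes, 9 were at 1 RPKM or more in every library and entered the tests over 11067 genes, and Nt5e did not.

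Ctgf and Cyr61 encode secreted CCN proteins that sit in the matrix and bind integrins and growth factors, and they are the most widely used readouts of YAP and TAZ. Ctgf (GRCm38, chromosome 10, 24595442 to 24598683, plus strand, 3 exon blocks) was at 44.5, 739 and 71.9 RPKM in replicates 1, 2 and 3 of MEF Nf2fl/fl and at 79.1, 673 and 141 RPKM in the line labelled MEF Nf2-/-. The range within a line, 44.5 to 739 RPKM in the control, was far larger than the distance between the means, 285 ± 394 and 298 ± 326 RPKM (SD, n = 3 each). Cyr61 (chromosome 3, 145646976 to 145649981, minus strand, 5 exon blocks) was at 117, 733 and 129 RPKM in the control line and at 229, 762 and 263 RPKM in the line labelled MEF Nf2-/-. As for Ctgf, replicate 2 of both lines stood far above the rest, and the lines overlapped. In replicates 1 and 3 both genes were higher in the libraries labelled MEF Nf2-/-, Ctgf by 1.78-fold and 1.97-fold and Cyr61 by 1.95-fold and 2.03-fold, while in replicate 2 the ratios were 0.910 and 1.04. The 2 genes did not keep a fixed proportion: the ratio of Ctgf to Cyr61 was 0.345 to 0.557 in replicates 1 and 3 and 0.884 and 1.01 in replicate 2.

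Ankrd1, an ankyrin repeat protein best known from stressed heart muscle, where it is found in the nucleus and the sarcomere, followed the CCN genes in replicate 2 but not between the lines. Its levels (chromosome 19, 36111961 to 36120099, minus strand) were 109, 371 and 95.1 RPKM in the control line and 82.8, 312 and 126 RPKM in the line labelled MEF Nf2-/-. The library labelled MEF Nf2-/- was lower in replicates 1 and 2 and higher in replicate 3.

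Axl, F3, Crim1 and Nt5e encode proteins of the cell surface. Axl, the receptor tyrosine kinase that binds Gas6 (chromosome 7, 25757273 to 25788705, minus strand), was at 73.3, 111 and 86.0 RPKM in the control line and at 46.0, 88.2 and 60.9 RPKM in the line labelled MEF Nf2-/-. It was the lower of each numbered pair in that line, at 0.628, 0.795 and 0.708 of the control, although the 2 lines overlapped because replicate 2 was high in both. F3, tissue factor, which starts the clotting cascade (chromosome 3, 121723537 to 121735048, plus strand), was at 32.7, 106 and 41.6 RPKM in the control line and at 43.8, 165 and 38.6 RPKM in the other line. Its highest value was in replicate 2 of the line labelled MEF Nf2-/-, the reverse of Ctgf and Ankrd1. Crim1, a transmembrane protein with cysteine-rich repeats that binds bone morphogenetic proteins (chromosome 17, 78200248 to 78376592, plus strand), was at 41.5, 96.4 and 54.9 RPKM in the control line and at 64.9, 97.0 and 92.8 RPKM in the line labelled MEF Nf2-/-. The replicate 2 values were within 1 RPKM of each other, and replicate 3 of the second line nearly reached them. Nt5e, which encodes CD73, the surface enzyme that makes adenosine from AMP (chromosome 9, 88327197 to 88372092, plus strand), was at 0.147, 0.239 and 0.230 RPKM in the control line and at 0.238, 0.669 and 0.471 RPKM in the line labelled MEF Nf2-/-. These values stand for about 17.0, 38.9 and 121 reads and about 36.9, 111 and 295 reads, so the gene was detected in every library at a low level, higher in the second line of each pair by 1.62-fold, 2.80-fold and 2.05-fold (exact permutation test, two-sided, p = 0.2).

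The last 3 genes act inside the cell. Ajuba, a LIM domain protein of cell junctions that binds the LATS kinases (chromosome 14, 54567472 to 54577558, minus strand), was at 15.1, 23.3 and 12.4 RPKM in the control line and at 15.5, 27.0 and 18.4 RPKM in the line labelled MEF Nf2-/-. Replicate 2 was again the highest of each line, by a smaller margin than for the CCN genes. Ptpn14, a tyrosine phosphatase that binds YAP (chromosome 1, 189728268 to 189876695, plus strand), was the flattest of the 10, at 23.6, 21.7 and 26.1 RPKM in the control line and 28.1, 24.4 and 23.4 RPKM in the other line. Dock5, an exchange factor for the small GTPase Rac (chromosome 14, 67752135 to 67933442, minus strand), was at 4.58, 4.68 and 4.13 RPKM in the control line and at 2.95, 2.93 and 2.69 RPKM in the line labelled MEF Nf2-/-. It was the only one of the 10 whose lines did not overlap.

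**Figure D2:**
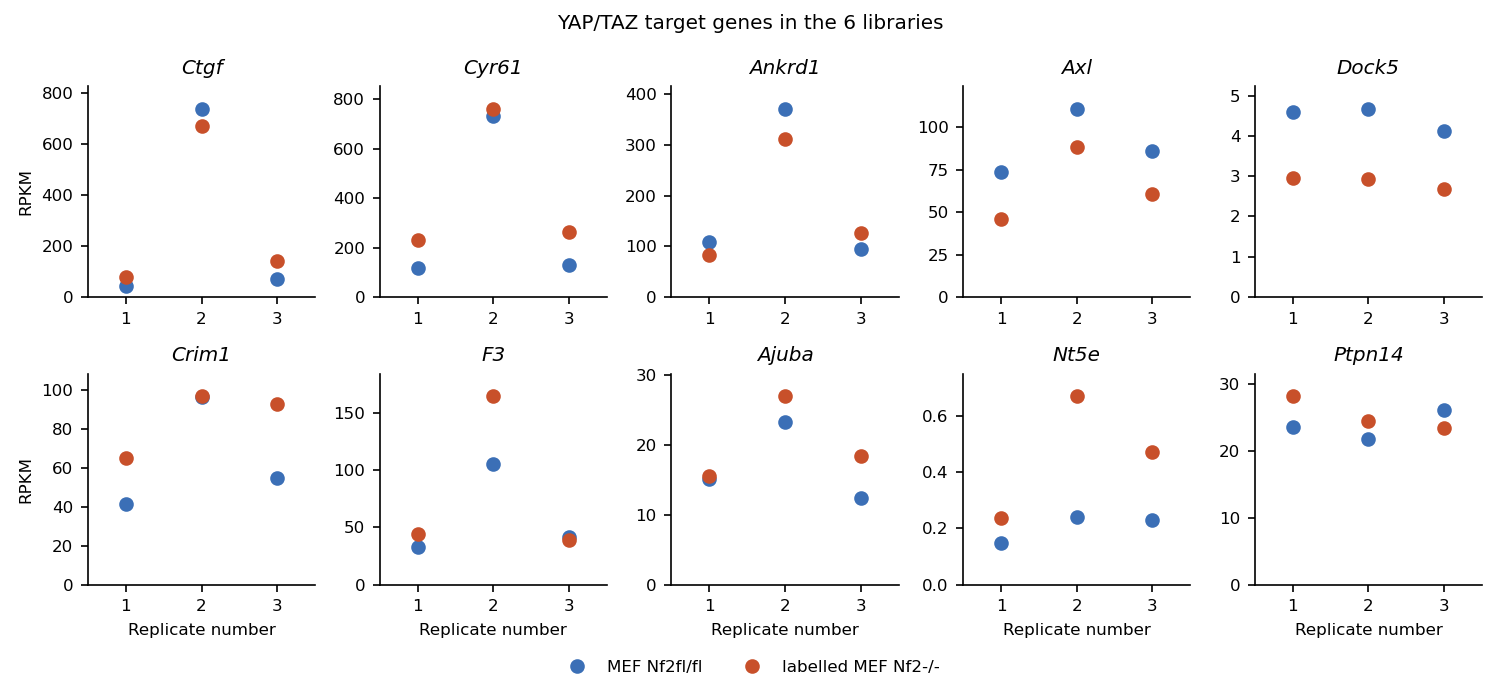
RPKM of each target gene (linear axes from 0) in the 6 libraries by replicate number, blue for MEF Nf2fl/fl and orange for the libraries labelled MEF Nf2-/-. Replicate 2 is the highest of its line for Ctgf, Cyr61, Ankrd1, Axl, Crim1, F3, Ajuba and Nt5e, while the 2 lines of Dock5 lie apart, at 4.13 to 4.68 and 2.69 to 2.95 RPKM.

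Some limits apply to single genes. Exons of Ctgf, Crim1 and Ptpn14 overlap on the opposite strand with Gm15270, Fez2 and Gm26574, and whether strand was used in counting is not given in the sources used here, so reads of each pair could not be told apart. Of the stretches of 31 bases in each transcript set, 2.57% of those of Ajuba and at most 0.362% of those of the other genes occur in another gene. In bulk RNA, fewer cells with a transcript and less of it per cell cannot be told apart.

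The first comparison asked how the target genes differ between the line labelled MEF Nf2-/- and MEF Nf2fl/fl, with limma on log2(RPKM + 1), a scale that understates changes of low genes. None of the 9 genes tested passed the threshold of 0.05 on the adjusted p, while 1.06% of the 11067 genes passed. Unadjusted, 1097 of the 11067 genes were under 0.05, and 1 of the 9 targets was (Dock5). In this line 6 genes had a positive and 3 a negative difference, none of them called, and the median was 0.26 on the log2 scale against -0.01 over all genes tested, of which 0.479% were called higher and 0.578% lower. This median rested on single libraries: it was -0.34 without replicate 2 labelled MEF Nf2-/-, -0.02 without replicate 1 of the control line and 0.54 without its replicate 2. Cyr61 had a positive difference of 0.68 (SE 0.79, 95% interval -1.22 to 2.57, limma adjusted p = 0.937), and Ctgf followed at 0.55 (SE 1.20, interval -2.33 to 3.42, adjusted p = 0.981). These intervals hold more than a doubling in either direction, so the unpaired design could not place the CCN genes. Leaving out replicate 2 of the control line gave 1.53 for Cyr61 and 1.78 for Ctgf, and leaving out that of the other line gave 0.13 and -0.34. Crim1 (0.46, SE 0.32), F3 (0.31, SE 0.65), Ajuba (0.26, SE 0.27) and Ptpn14 (0.09, SE 0.11) were also on the positive side, with limma adjusted p of 0.810 to 0.981. Without replicate 2 labelled MEF Nf2-/-, F3 came to -0.34 and Ajuba to 0.04, and without replicate 1 of the control line F3 came to -0.02.

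With all 6 libraries, the genes whose difference had the sign opposite to the median were Dock5, Axl and Ankrd1, a division that changes where the median itself turns. Dock5 differed by -0.50 (SE 0.09, 95% interval -0.72 to -0.28, limma adjusted p = 0.0770), from 4.46 ± 0.293 to 2.86 ± 0.144 RPKM (SD, n = 3 each). An exact two-sided permutation test gave Dock5 p = 0.1, the smallest that 3 against 3 libraries allow. Over all genes tested, 7.52% were lower in the second line without overlap and 7.60% higher. Axl differed by -0.49 (SE 0.26, interval -1.11 to 0.13, limma adjusted p = 0.666), from 90.1 ± 19.1 to 65.0 ± 21.4 RPKM (SD, n = 3 each). Ankrd1 differed by -0.08 (SE 0.65, interval -1.65 to 1.48, limma adjusted p = 0.996), a value well inside its error, and its sign turned when single libraries were left out. By the exact permutation test p was 0.9 for Ankrd1 and 0.3 to 0.6 for the other 7 genes tested.

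The replicate numbers were taken as pairs, since libraries of the same number deviated from their line in the same way (correlations 0.516 to 0.819 across genes). The highest of these was that of replicate 2. Replicates 1 and 3 were less clearly told apart, since libraries of these unlike numbers also correlated across the lines (0.493 and 0.322). With the number as a block, 2 of the 9 genes passed, both of them lower: Dock5 (limma adjusted p = 0.0145, interval -0.66 to -0.34) and Axl (limma adjusted p = 0.0310, interval -0.71 to -0.28). Over all genes 7.53% passed in this fit and 4.54% were lower. Ctgf (adjusted p = 0.222), Cyr61 (adjusted p = 0.126, interval 0.16 to 1.19) and Crim1 (adjusted p = 0.152, interval 0.08 to 0.85) did not pass in the blocked limma fit. Unadjusted, 2563 of the 11067 genes and 4 of the 9 targets were under 0.05 in that fit. Pair by pair, Axl and Dock5 were lower in all 3 pairs, Cyr61, Crim1, Ajuba and Nt5e were higher in all 3, and Ctgf, Ankrd1, F3 and Ptpn14 changed sign between pairs. Among all genes tested, 24.6% were lower and 22.3% higher in all 3 pairs, and 53.1% were mixed.

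**Figure D3:**
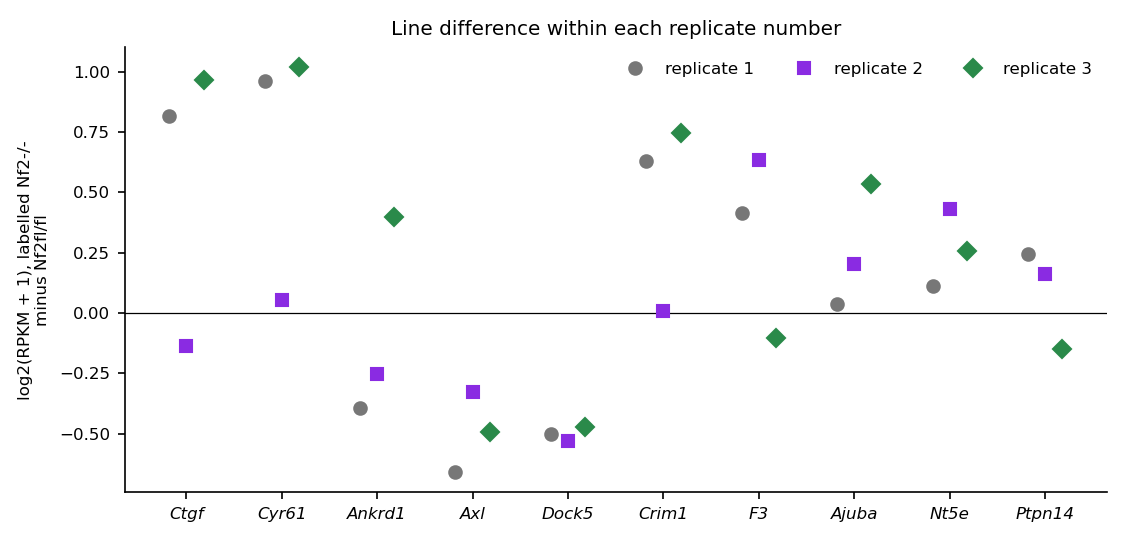
Difference in log2(RPKM + 1) between the library labelled MEF Nf2-/- and the MEF Nf2fl/fl library of the same replicate number, one point per number, for each target gene. Axl and Dock5 lie under 0 at all 3 numbers, and the differences of Ctgf, Cyr61 and Crim1 are near 0 at replicate 2 and above 0 at replicates 1 and 3.

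Leaving out replicate 2 moved the line difference of several genes. The median difference of the 9 genes was 0.24 in pair 1, 0.01 in pair 2 and 0.40 in pair 3. Without replicate 2, Cyr61 passed as higher in the libraries labelled MEF Nf2-/- (log2 difference 0.99, SE 0.13, limma adjusted p = 0.0111), one of 484 genes to pass then. Ctgf came to 0.89 (SE 0.34, limma adjusted p = 0.309) and Crim1 to 0.69 (adjusted p = 0.166), with Axl at -0.58 (adjusted p = 0.126) and Dock5 at -0.49 (adjusted p = 0.0669). Whether the line difference itself changed with replicate 2 was tested by the interaction in limma, in which none of the 9 genes and none of the 11067 passed (1 and 313 were under 0.05 unadjusted). The interaction was -0.94 for Cyr61 (SE 0.24, 95% interval -1.51 to -0.36, not passing), -1.03 for Ctgf (SE 0.59, interval -2.52 to 0.47) and -0.68 for Crim1 (SE 0.36, interval -1.56 to 0.20). It was 0.48 for F3 (SE 0.25, interval -0.11 to 1.07) and between -0.25 and 0.25 for the other 5. Replicate 2 is 1 library in each line, so these errors rest on the spread of replicates 1 and 3. The same spread is assumed for replicate 2.

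The second comparison set replicate 2 of both lines, the libraries marked B, against replicates 1 and 3 within the lines. In replicate 2, 6 of the 9 genes tested rose and none fell, where 10.8% of all genes were called higher, 19.8% lower and 30.6% in either direction. The split over all genes depended on the scaling: 1195 were called higher and 2191 lower, against 1698 and 1536 after median centring and 1553 and 1412 after quantile normalization, and 6 of the targets passed as higher under each of these scalings. The largest rise was that of Ctgf, from a mean of 84.2 to 706 RPKM, with a log2 difference of 3.17 (SE 0.34, 95% interval 2.36 to 3.98, limma adjusted p = 0.00241). It was the second largest difference of all 11067 genes. Cyr61 rose from 185 to 747 RPKM (2.10, SE 0.20, interval 1.61 to 2.58, limma adjusted p = 0.00157). Ankrd1 rose from 103 to 342 RPKM and F3 from 39.2 to 135 RPKM, both by 1.73 on the log2 scale (limma adjusted p = 0.00159 and 0.00103). The promoter window of Ankrd1, printed above, holds TEAD cores and no AP-1 match, and that of F3 holds AP-1 matches and no TEAD core.

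Ajuba and Axl rose by less. Ajuba went from 15.4 to 25.1 RPKM (0.68, SE 0.11, interval 0.44 to 0.93, limma adjusted p = 0.00512), and Axl from 66.6 to 99.5 RPKM (0.60, SE 0.14, interval 0.28 to 0.92, limma adjusted p = 0.0171). Without replicate 2 of the control line neither passed, with differences of 0.64 for Ajuba and 0.72 for Axl. Without replicate 2 of the line labelled MEF Nf2-/- Axl did not pass, with a difference of 0.48. A single library stood for replicate 2 in each of these fits. Crim1 had a difference of like size, 0.66 (SE 0.22, interval 0.14 to 1.18), but did not pass (limma adjusted p = 0.0614), and it passed with the replicate block (limma adjusted p = 0.0322), which called 33.3% of all genes and 11.4% higher. Within the lines, replicate 2 of Crim1 was 1.999 times the mean of replicates 1 and 3 in MEF Nf2fl/fl and 1.23 times in the libraries labelled MEF Nf2-/-. For Ctgf the same ratios were 12.7 and 6.11, for Cyr61 5.95 and 3.10, for Ankrd1 3.63 and 2.99, for F3 2.85 and 3.99, for Axl 1.39 and 1.65, and for Ajuba 1.69 and 1.59.

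In this comparison Ptpn14 and Dock5 stood apart from the rest. Ptpn14 was the only one of the 9 with a negative difference, -0.13 (SE 0.10, 95% interval -0.36 to 0.10, limma adjusted p = 0.341), against a median of 0.68 for the 9 genes and -0.08 for all genes tested. Dock5 hardly differed, at 0.06 (SE 0.08, interval -0.13 to 0.26, limma adjusted p = 0.590), which leaves room for a rise of at most 0.26 at this confidence. The 6 that rose and Crim1, 7 genes in all, were higher in replicate 2 of both lines than in every other library, as were 16.8% of all genes, and no target was lower without overlap, as were 29.8%. Nt5e entered the limma fit only when no filter was used, with a replicate 2 difference of 0.18 (SE 0.11, limma adjusted p = 0.399) and a line difference of 0.27 (SE 0.12, limma adjusted p = 0.756). Its replicate 2 level was 1.27 times the mean of replicates 1 and 3 in MEF Nf2fl/fl and 1.89 times in the other line. The difference of replicate 2 was larger in size than that between the lines for 8 of the 9 genes, all but Dock5, and for 67.7% of all genes tested.

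**Figure D4:**
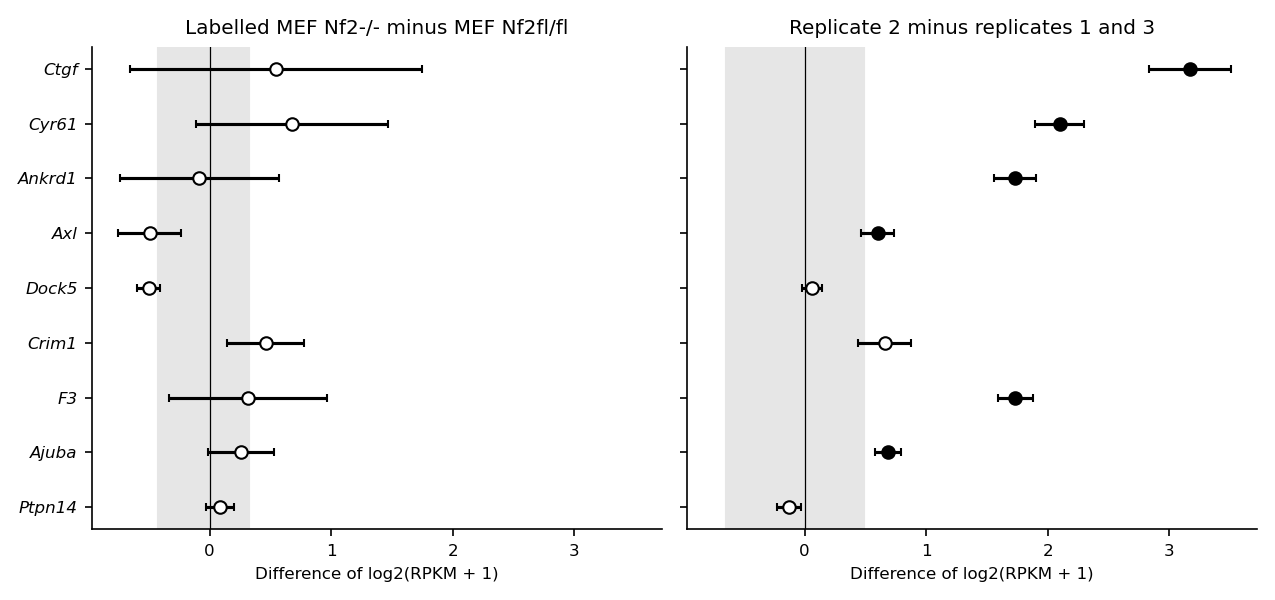
Log2 differences (on log2(RPKM + 1)) of the 9 tested target genes between the lines and between replicate 2 and replicates 1 and 3, with bars for 1 standard error, filled points where the limma adjusted p passed 0.05, and a grey band from the 5th to the 95th percentile of all genes tested. No point is filled for the lines, and 6 are filled for replicate 2, led by Ctgf at 3.17.

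The summed level of the 10 genes was 462, 2207 and 521 RPKM in the control line and 593, 2151 and 767 RPKM in the line labelled MEF Nf2-/-. Other cell types and depth were looked at beside the change in replicate 2. The 8 fibroblast markers summed to 1130 to 1377 RPKM in replicate 2 and 1347 to 2063 RPKM elsewhere, and single markers varied more. Col3a1 was at 15.3 and 6.95 RPKM in replicate 2 and 29.8 to 82.1 RPKM elsewhere, Col1a1 at 435 and 265 against 483 to 712 RPKM, Col1a2 at 131 and 92.4 against 240.3 to 330 RPKM, and Pdgfrb at 10.2 and 8.92 against 24.9 to 34.5 RPKM. Pdgfra (5.22 and 0.657 RPKM) and Dcn (1.60 and 0.0266 RPKM) were lowest of their line in replicate 2, and Thy1 (7.04 and 3.64 RPKM) was highest of its line there. Vim, at 536 to 882 RPKM, overlapped between replicate 2 and the other libraries. The 6 endothelial markers summed to 3.89 to 4.45 RPKM in replicate 2 and 1.46 to 1.84 RPKM elsewhere, with 5 of the 6 under 1 RPKM in every library and Kdr above it. Of 8 muscle markers listed 6 were found, and these summed to 4.46 to 4.72 RPKM in replicate 2 and 2.09 to 3.94 RPKM elsewhere, with 5 under 1 RPKM in every library and Tnnt2 above it. Of 6 macrophage markers 5 were under 1 RPKM in every library and Cd68 was at 5.08 to 8.10 RPKM. The part of other cells in the change was not tested. The inferred depth of replicate 2, 18.9 and 19.2 M reads, was close to that of replicate 1 of the second line, 18.05 M reads.

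Beyond the 10 genes, 23 further YAP and TAZ targets were looked up, of which 22 were tested. Between the lines 1 of them passed, where 1.06% of all genes did, namely Tgfb2, a ligand of the TGF-beta family, which rose from 3.04 ± 0.169 to 9.56 ± 2.40 RPKM (SD, n = 3 each; log2 difference 1.36, limma adjusted p = 0.0301). Over the 22, 15 had a positive and 7 a negative difference, with a median of 0.39 against -0.01 over all genes. Unadjusted, 1097 of the 11067 genes and 10 of the 22 targets were under 0.05 in limma. With the replicate block 10 passed, 8 higher, Tgfb2 and Thbs1 among them, and 2 lower, Areg and Foxf2, beside 2.99% of all genes higher and 4.54% lower. Without replicate 2, 12 passed between the lines, of 484 genes in all. Without replicate 1 or replicate 3 none of the 11067 genes passed in limma (578 and 556 were under 0.05 unadjusted). In replicate 2, 14 of the 22 changed, 10 higher and 4 lower, beside 10.8% of all genes higher and 19.8% lower, with a median of 0.23. The count was 2 without replicate 2 of the control line and 6 without that of the other line, where the count over all genes fell too, from 3386 to 832 and 699. The largest rises were those of Edn1, which encodes the vasoconstrictor endothelin (1.69), Inhba, an activin subunit (1.17), and Dlc1 (1.17), while Gadd45a, Rbms3, Dab2 and Arhgef17 fell by 0.67, 0.45, 0.40 and 0.26 on the log2 scale. Arhgef17 (limma adjusted p = 0.0499) and Birc5, which was higher, were not called with the replicate block, where 9 were higher and 3 lower.

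The largest difference among the components of the pathway in replicate 2 was 0.96, that of the co-factor Vgll3, smaller than those of Ctgf and Cyr61. Yap1 was at 23.1, 25.1 and 21.4 RPKM in the control line and at 22.2, 25.2 and 22.3 RPKM in the line labelled MEF Nf2-/- (replicate 2 difference 0.17, limma adjusted p = 0.108). Wwtr1, which encodes TAZ, was at 29.5, 33.1 and 30.6 RPKM and at 37.1, 38.6 and 31.6 RPKM (replicate 2 difference 0.15, limma adjusted p = 0.218). Neither passed between the lines, where the limma adjusted p was 0.998 for Yap1 and 0.702 for Wwtr1. These are RNA levels, and the place or phosphorylation of the proteins was not measured. Of the DNA-binding partners, Tead1 (0.32) and Tead4 (0.57) rose in replicate 2 and Tead2 fell by 0.47 on the log2 scale, while Tead3 was at -0.21 (limma adjusted p = 0.0749). Ajuba, one of the 10 targets, and Amotl2 and Lats2, also among the other targets, count on the pathway list and were called higher in replicate 2. Amotl2 and Lats2 also passed on both lists between the lines with the replicate block. In all, 14 of 30 pathway genes tested of 31 listed passed for replicate 2, 11 higher and 3 lower, beside the same 10.8% and 19.8% of all genes. The count was 3 and 5 in the fits that called 832 and 699 of all genes. Between the lines 1 passed, beside 1.06% of all genes: Vgll4, a relative of Vgll3 (0.77, limma adjusted p = 0.0352; 5 passed with the replicate block, all higher, beside the same 2.99% of all genes, and 4 passed without replicate 2). None of the pathway genes passed in limma without a filter, without replicate 1, without replicate 3, or without any single library other than replicate 2 of the control line (3 passed without that one). With all libraries 5 of the 30 were under 0.05 unadjusted in limma, beside 1097 of the 11067 genes.

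The CCN family has 6 members in the mouse, of which 5 were tested. In replicate 2 Ctgf and Cyr61 rose, while Nov, Wisp1 and Wisp2, which were not called, had differences of -0.53, -0.42 and -0.19. Nov was at 3.91, 3.95 and 5.01 RPKM in the control line and at 22.1, 5.10 and 4.78 RPKM in the line labelled MEF Nf2-/-, so its high value came from 1 library. None of the 5 passed between the lines in limma, with 1 of the 5 under 0.05 unadjusted, beside 1097 of the 11067 genes. All 5 had a positive line difference, with a median of 0.68, though that of Ctgf turned when single libraries were left out. The largest, 1.60, was that of Wisp2, at 2.59, 5.95 and 13.5 RPKM in the control line and 22.4, 17.5 and 22.3 RPKM in the other line. Its lines did not overlap, and 7.60% of all genes were likewise higher without overlap. The 15 targets of SRF and its actin-regulated co-activators MRTF, which were listed because they respond to actin tension too, were all on the positive side in replicate 2, and 12 rose, where 10.8% of all genes did, with a median of 0.84. In the fits without one or the other replicate 2 library, which called 832 and 699 of all genes, 4 and 5 of these targets passed. Tagln, a smooth muscle actin-binding protein, was at 152, 821 and 225 RPKM in the control line and at 157, 733 and 289 RPKM in the other line, a rise of 1.96 in replicate 2 (limma adjusted p = 0.00501). None of the 15 passed between the lines, and 1 was under 0.05 unadjusted in limma, beside 1097 of the 11067 genes. With the replicate block 5 of the 15 passed, 4 higher and Tpm2 lower, beside 2.99% and 4.54% of all genes. Most of the 10 genes and most of the SRF list were high in the same replicate 2 libraries, and with no treatment that separates the lists their changes cannot be told apart.

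**Figure D5:**
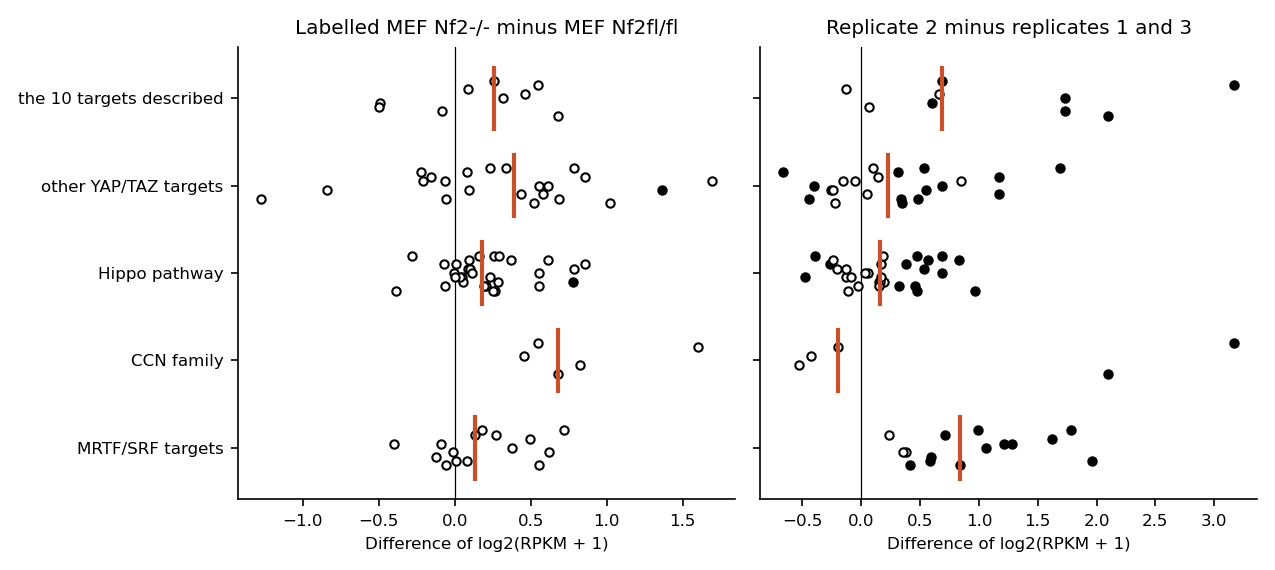
Log2 differences (on log2(RPKM + 1)) of single genes in the target list, the other YAP and TAZ targets, the Hippo pathway, the CCN family and the MRTF/SRF targets, between the lines and for replicate 2, with filled points for genes that passed in limma and a red line at each median. In replicate 2 the medians are 0.68 for the 10-gene set (9 tested), 0.23 for the other targets and 0.84 for the MRTF/SRF targets.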

How the data were processed

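RNA of 3 libraries of each line was sequenced by a service provider, and the authors deposited 1 table with a value per gene and library. The unit is not named in it. The deposited values were taken as RPKM because each library summed to 250088 to 263424 and because low values came in steps that depended on the gene; 83.8% to 85.6% of values of up to 20 reads were whole multiples of a step within 0.05 (10% by chance), which gave the depths. The genome build was mm10 per the submitters' processing notes, and the aligner and counter are not given in the sources used here. The inferred reads are approximate and served for depth only.

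Groups and replicate numbers came from the labels. All columns were mapped to a library. The 11067 genes that reached 1 RPKM in 3 or more libraries were tested on log2(RPKM + 1) with limma 3.58.1 in R 4.3.3 (trend and robust), with Benjamini-Hochberg adjustment over all of them and a threshold of 0.05. The line was tested without a block, replicate 2 with the line as covariate, and their interaction in 1 model. Libraries of the same replicate number deviated together from their line means (correlations 0.552, 0.819 and 0.516, and 0.322 and 0.493 between replicates 1 and 3), so the numbers were treated as pairs and a blocked fit was run. Replicates of a line differed by 7.17 to 31.5 times the sampling noise, so none was counted as a repeat of another. Positions came from GENCODE on GRCm38, and promoters from RefSeq on GRCm38.p6. Alternatives were leaving the filter out or raising it to 5 RPKM, a pseudocount of 0.1, limma without trend and robust, quantile normalization, median centring and leaving out libraries.

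The 10 genes and all lists were chosen with earlier results of these data known, so their counts are descriptions. Named genes were Nf2, the 10 genes, listed genes that passed a threshold, the CCN family, Yap1, Wwtr1 and the Tead genes, and for each target the gene with the nearest profile among those tested with a mean of at least 5 RPKM (that of Ctgf is not reported here). Figures were drawn with matplotlib 3.10.9.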

Additional observations from a re-analysis of the deposited data

How the results depend on the processing

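Of the 10 target genes, 6 passed for replicate 2 and 0 between the lines under a pseudocount of 0.1, a filter of 5 RPKM, limma without trend and robust, quantile normalization and median centring, and no setting moved the median of all genes by more than 0.1. Without a filter 4 of the targets passed for replicate 2, and the limma adjusted p of Axl was 0.0986 and of Ajuba 0.0506; the counts there were 884 genes, 3 other targets, 2 pathway genes and 5 MRTF/SRF targets for replicate 2, and 9 genes, 0 other targets and 0 pathway genes between the lines, where more genes were tested. With a filter of 5 RPKM 63 genes passed between the lines and 9 other targets for replicate 2, where the median of the targets was 1.21 since Dock5 was no longer tested, and without trend and robust 2 other targets passed between the lines. With the replicate block the counts between the lines were 833 genes, 2 targets, 10 other targets, 5 pathway genes and 5 MRTF/SRF targets, and the block changed the call of no other target than Axl, Dock5 and, for replicate 2, Crim1.

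Leaving out single libraries or numbers gave, between the lines, 0 to 484 genes, 0 to 1 targets, 0 to 12 other targets, 0 to 4 pathway genes and 0 MRTF/SRF targets, and for replicate 2, 699 to 3375 genes, 4 to 7 targets, 2 to 14 other targets, 3 to 12 pathway genes and 4 to 14 MRTF/SRF targets. The lowest gene counts for replicate 2 came without its MEF Nf2fl/fl library (832) and without the one labelled MEF Nf2-/- (699), and a lone library is then assumed to vary like the others. Axl did not pass for replicate 2 without either of these (limma adjusted p = 0.0730 and 0.186), Ajuba did not without the first (0.0605), and Crim1 passed without replicate 3 (0.0233) and without its library labelled MEF Nf2-/- alone (0.0120). The signs of some line differences turned. Ankrd1 came to 0.07 without replicate 1, 0.0013 without replicate 2, 0.54 without replicate 2 of MEF Nf2fl/fl, and 0.33 and 0.04 without replicates 1 and 3 labelled MEF Nf2-/-. Without replicate 1 of MEF Nf2fl/fl, Ctgf came to -0.24 and F3 and the median of the targets to -0.02; without replicate 2 labelled MEF Nf2-/-, Ctgf and the median came to -0.34 and F3 to -0.34. Over all such choices the line differences ranged from -0.62 to 0.54 for Ankrd1, -0.34 to 1.78 for Ctgf, -0.34 to 0.81 for F3, 0.13 to 1.53 for Cyr61, 0.20 to 0.80 for Crim1, 0.04 to 0.50 for Ajuba and -0.73 to -0.27 for Axl. For replicate 2 the median of the targets ranged from 0.64 to 0.998, the highest without the replicate 2 library labelled MEF Nf2-/-. The cause was not tested. The depth limits Nt5e most, which had about 17.0 reads in the shallowest library.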

Other observations

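The gene whose profile over the 6 libraries was nearest to that of each target named here was found among genes tested with a mean of at least 5 RPKM, by the root mean square difference of log2(RPKM + 1) after centring each gene on its mean. For Cyr61 it was Acta2, smooth muscle actin, at a distance of 0.26 where the spread of Cyr61 itself was 1.07. Acta2 was at 302, 1625 and 501 RPKM in the control line and at 625, 2066 and 851 RPKM in the line labelled MEF Nf2-/-. As with Cyr61, replicate 2 was the highest of each line and the library labelled MEF Nf2-/- was the higher of each pair.

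The nearest gene to Ankrd1 was Fhl1, a LIM domain protein of muscle (0.14, own spread 0.84), and that to F3 was Sgk1, a serum- and glucocorticoid-induced kinase (0.098, own spread 0.85). Sgk1 was at 4.47, 18.3 and 5.51 RPKM in the control line and at 5.77, 24.8 and 4.79 RPKM in the line labelled MEF Nf2-/-, with the highest value in the same library as F3. For Dock5, the one target whose lines did not overlap, it was Abr (0.036, own spread 0.26), with 7.16, 7.40 and 6.36 RPKM against 4.51, 4.86 and 4.53 RPKM. Axl was nearest to Bok (0.029), Crim1 to Alkal1 (0.11), Ajuba to Basp1 (0.053) and Ptpn14 to Npr2 (0.032). With 6 libraries and this many genes, close profiles are to be found for many genes, and no test was made.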
